A study of Mus musculus with 6 samples.

Results

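The genes described here are 10 members of the bone morphogenetic protein (BMP) pathway, measured in the somatic cells of the fetal mouse testis and in embryonic stem cells. They are the ligands Bmp2, Bmp4 and Bmp7, the receptors Bmpr1a and Bmpr2, the secreted antagonist Nog, and the target genes Id1, Id2, Id3 and Id4. Probes were taken as members when their transcript identifier belonged to 1 of these 10 genes, which gave 11 of the 39429 gene probes on the array, 1 per gene and 2 for Bmp4. All 10 genes had a probe well above background on all 6 arrays, by the scanner software's own mark, so all 10 were among the 19673 genes tested. The second Bmp4 probe failed that mark on every array, and no difference is given for it.

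The soma group holds 3 samples of gonadal somatic cells from male embryos at E13.5, from a cross labelled MCH x C57BL6/J that carries a transgene labelled Oct5<delta>PE-GFP. Against them stand 3 samples of embryonic stem cells, called ESC, all from the male line VR15, which carries a Vasa::RFP transgene, so that group stands for 1 line. The series describes the 3 samples of each group as biological replicates but does not say whether they were separate animals or cultures, and the p-values measure the spread between these samples. From each sample 100 ng of total RNA was labelled with Cy3 and put on its own array. The culture medium of the stem cells is not given in the sources used here.

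BMP ligands are secreted dimers that bring together type I receptors, among them Bmpr1a, and type II receptors, among them Bmpr2. The type II receptor activates the type I receptor, which phosphorylates SMAD1, SMAD5 and SMAD9, and these enter the nucleus with SMAD4 and switch on target genes. The ID genes are the classic direct targets. They encode helix-loop-helix proteins that bind no DNA themselves and hold E proteins away from it. In mouse embryonic stem cells BMP4 with the cytokine LIF is known to sustain self-renewal through ID proteins, and BMP signals from extraembryonic tissue are known to induce primordial germ cells in the early embryo.

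Values are log2 signals less the 75th percentile of their own array, so that 0 marks a signal at that percentile, and differences are ESC minus soma from a limma fit over all genes. A probe's signal depends on its sequence, so values are compared between groups and not between genes. The 75th percentile of the processed signal ran from 1330 to 1486 on the soma arrays and from 1025 to 1085 on the ESC arrays, with an exact permutation p of 0.1, two-sided, the smallest that 3 arrays against 3 allow. Soma 1 and 2 lay on 1 slide and shared a scan, and soma 3 lay on the slide of the 3 ESC arrays but was scanned apart from them. Each scan held a single group, and the effects of scan and group cannot be told apart. The marker lists were chosen with earlier results of these data known, so they describe the groups and are no independent check of the labels. All 6 pluripotency genes were higher in ESC, with a summed signal of 134 to 153 times the 75th percentile in ESC and 0.676 to 1.16 in soma. All 6 Sertoli genes, all 4 fetal Leydig genes tested and all 5 interstitial genes were higher in soma. Of 3 mesonephros genes tested, 2 were higher in ESC and 1 in soma.

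Of the 10 genes, 8 were higher in soma, 1 was higher in ESC and 1 did not pass an adjusted p of 0.05. Over all 19673 genes, 85.0% passed in either direction, 38.4% as higher in soma and 46.7% as higher in ESC. The 9 genes that passed also showed no overlap between the groups, as did 87.3% of all genes, and all 9 differed by at least 2-fold, 8 of them higher in soma and 1 in ESC, against 47.5% of all genes, or 23.3% and 24.2% in those directions. With the slide as a block 79.0% of all genes passed, and under quantile, spike-in, array median and normexp settings 83.7%, 82.7%, 85.2% and 84.0%, while 9 of the 10 genes passed under each of these 5. A passing test is thus common in this comparison, and the direction and size of each gene carry the description below. The median difference of the 10 genes was -1.92 and that of all genes 0.14. In bulk RNA of this kind, fewer cells that express a gene and less RNA per cell cannot be told apart.

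**Figure D1:**
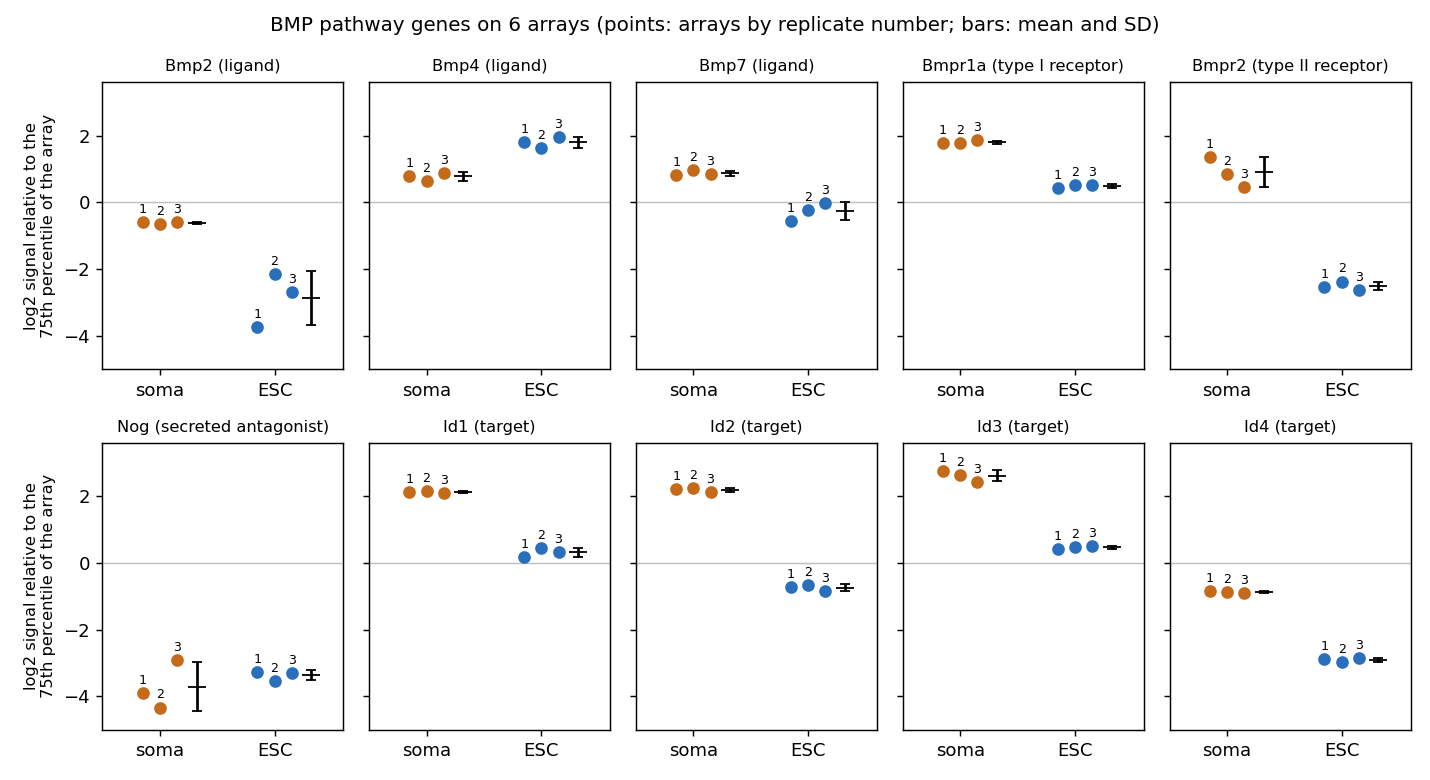
Log2 signal of each gene on each array, relative to the array's 75th percentile (y axis), for soma and ESC (x axis); points are arrays marked with their replicate number, and bars are the mean and SD of 3 arrays. Only Nog has overlapping groups, only Bmp4 lies wholly higher in ESC, and Bmpr2 and Nog spread in soma where Bmp2 spreads in ESC.

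The 3 ligands did not move together. Bmp4, the ligand tied to stem cell self-renewal and germ cell induction, was 2.04-fold higher in ESC. It stood at 0.80, 0.65 and 0.89 on soma 1 to 3 and at 1.80, 1.64 and 1.97 on ESC 1 to 3, so that the lowest ESC array lay 0.75 above the highest soma array. The log2 difference was 1.03 ± 0.11 (SE, n = 3 per group, adjusted p 0.00018). It was not larger than 2-fold beyond its error, since a test against a log2 difference of 1 gave an adjusted p of 0.853.

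Bmp2 and Bmp7, which act in many tissues including the developing skeleton and kidney, were higher in soma. Bmp2 stood at -0.59, -0.64 and -0.59 on soma 1 to 3, which lie close together. On ESC 1 to 3 Bmp2 stood at -3.75, -2.15 and -2.71, a span of 1.61 that makes its ESC spread larger than that of 98.1% of all genes. Its log2 difference was -2.26 ± 0.40 (SE, n = 3 per group, adjusted p 0.00213), or 4.79-fold, with a 95% interval from -3.24 to -1.28. Bmp7 stood at 0.82, 0.95 and 0.85 on soma 1 to 3 and at -0.56, -0.22 and -0.03 on ESC 1 to 3, which lie wholly below soma. Its log2 difference was -1.14 ± 0.14 (SE, n = 3 per group, adjusted p 0.000395), or 2.21-fold, and the test against a log2 difference of 1 gave an adjusted p of 0.389. Of all genes, 38.6% passed that stricter test.

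Both receptors were higher in soma, by unequal amounts. Bmpr1a, which encodes the type I receptor ALK3, stood at 1.77, 1.77 and 1.86 on soma 1 to 3 and at 0.42, 0.53 and 0.52 on ESC 1 to 3. The arrays of each group lie within 0.11 of each other, and the log2 difference was -1.31 ± 0.06 (SE, n = 3 per group, adjusted p 3.64e-06), or 2.48-fold. Bmpr2, which encodes the type II receptor used by many BMP ligands, stood at 1.37, 0.86 and 0.46 on soma 1 to 3 and at -2.56, -2.38 and -2.62 on ESC 1 to 3. Its soma arrays span 0.90, a spread above that of 95.4% of all genes, yet the lowest of them lies 2.84 above the highest ESC array. The log2 difference was -3.42 ± 0.23 (SE, n = 3 per group, adjusted p 2.42e-05), or 10.68-fold, and 90.0% of all genes had a smaller difference in size. On the shared slide, against soma 3 alone (n = 1), it was -2.98. The log2 ratio of Bmpr1a to Bmpr2 within an array was higher in ESC by 2.11, with no overlap between groups. Its exact permutation p was 0.1, two-sided, or 0.117 adjusted over the 7 pairs compared. This difference was 1.55 under normexp background correction and 1.61 on the shared slide, against soma 3 alone.

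Nog, which encodes Noggin, a protein that binds BMP ligands and keeps them from their receptors, showed no difference beyond its spread. It stood at -3.89, -4.34 and -2.90 on soma 1 to 3 and at -3.26, -3.55 and -3.31 on ESC 1 to 3, so the ESC arrays fall within the span of the soma arrays. The log2 difference was 0.33 ± 0.36 (SE, n = 3 per group, adjusted p 0.419), with a 95% interval from -0.57 to 1.24, which leaves room for a difference of over 2-fold in favour of ESC. The difference was positive with any single array left out, from 0.019 without soma 2 to 0.74 without soma 3. Without soma 3 it passed (adjusted p 0.0113), as did 84.3% of all genes. With the slide as a block, where soma 3 is the soma array set against ESC, it was -0.47 and did not pass (adjusted p 0.0975).

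Germ cell markers also differed among the soma arrays, with a summed signal of 3.80, 5.28 and 7.49 times the 75th percentile on soma 1 to 3 and 5.15 to 5.91 in ESC. Of those 6 markers 3 passed, with 2 higher in soma and the other in ESC. Nanos2 was not well above background on any ESC array. The ESC sum came mostly from Dppa3, Mael and Nanos3, so it is no measure of germ cells there. Soma 3 had the highest germ cell sum, the highest Nog and the lowest Bmpr2 of the soma arrays. It was also the only soma array on the slide of the ESC arrays, and it had a scan of its own. The part of germ cells in those values was not tested and cannot be told apart from slide or scan.

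**Figure D2:**
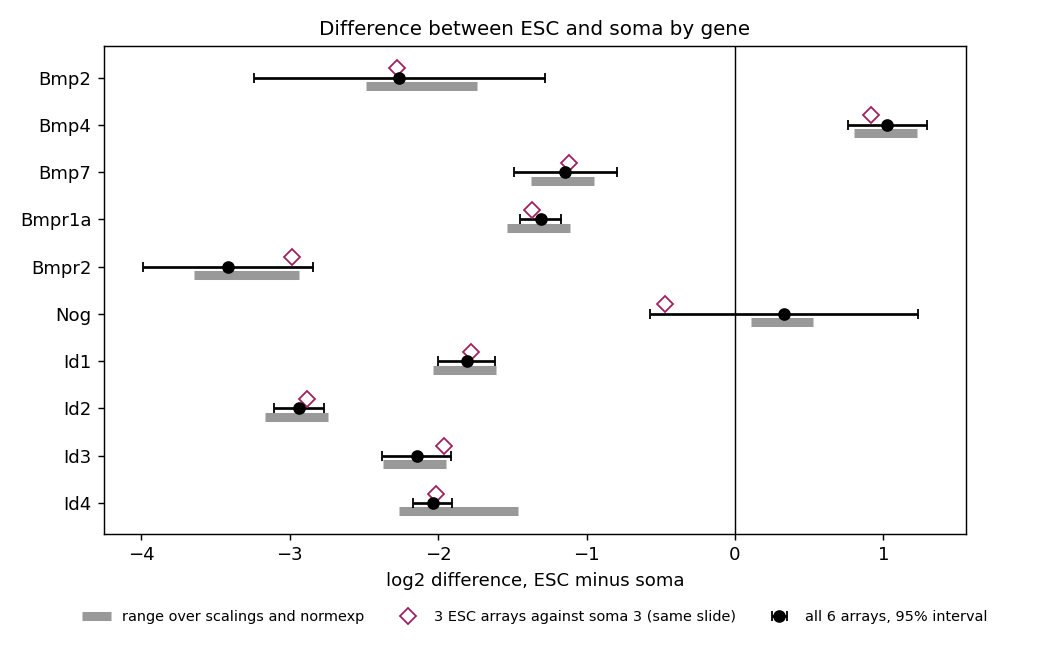
Log2 difference ESC minus soma (x axis) of each gene (y axis); filled points are the fit over 6 arrays with its 95% interval, grey bars the range over other scalings and normexp background correction, and open diamonds the 3 ESC arrays against soma 3 on the shared slide. The interval of Nog runs from -0.57 to 1.24 and crosses 0, and its diamond lies at -0.47, opposite in sign to its filled point.

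Each of the 4 ID genes was higher in soma, and their median difference was -2.09. Promoter sequences of 3 of them are shown because these genes moved together and are known targets of SMAD proteins. RefSeq promoter windows of the GRCm38.p6 assembly, from 250 bases before to 50 bases after the annotated start, were matched for 6 of the 10 genes, Bmp4, Bmpr1a, Bmpr2, Id2, Id3 and Id4. Entries for Bmp2, Bmp7, Nog and Id1 were not matched. Capitals mark GGCGCC, a GC-rich sequence that reads the same on both strands and is known to be bound by SMAD1 and SMAD5, and CAGAC or its reverse complement GTCTG, which holds the short SMAD box. The windows are Id2 on the minus strand at chr12:25096043-25096342, Id3 on the plus strand at chr4:136143572-136143871 and Id4 on the plus strand at chr13:48260866-48261165.
Id2: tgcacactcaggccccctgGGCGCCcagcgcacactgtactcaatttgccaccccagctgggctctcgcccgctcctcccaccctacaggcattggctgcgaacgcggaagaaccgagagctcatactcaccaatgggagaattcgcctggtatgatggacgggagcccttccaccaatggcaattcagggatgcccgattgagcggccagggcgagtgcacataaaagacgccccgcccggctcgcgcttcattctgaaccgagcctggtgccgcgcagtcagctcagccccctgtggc
Id3: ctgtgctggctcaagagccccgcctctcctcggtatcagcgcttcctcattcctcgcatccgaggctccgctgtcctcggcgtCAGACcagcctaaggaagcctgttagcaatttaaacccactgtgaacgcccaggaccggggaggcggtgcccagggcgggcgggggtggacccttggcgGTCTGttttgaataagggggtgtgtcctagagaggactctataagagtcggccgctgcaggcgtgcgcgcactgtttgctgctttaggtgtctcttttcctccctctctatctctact
Id4: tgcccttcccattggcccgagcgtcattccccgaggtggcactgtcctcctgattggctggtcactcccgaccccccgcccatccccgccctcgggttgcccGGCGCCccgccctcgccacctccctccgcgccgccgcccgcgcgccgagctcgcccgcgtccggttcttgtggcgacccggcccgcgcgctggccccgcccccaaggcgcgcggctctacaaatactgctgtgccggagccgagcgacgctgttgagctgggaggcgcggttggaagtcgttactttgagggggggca

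The windows of Id2 and Id4 each hold 1 GGCGCC, at -231 and -148 from the start, and no CAGAC on either strand. The Id3 window holds no GGCGCC and 2 matches to CAGAC or GTCTG, at -167 and -68. Bmpr1a and Bmpr2, also higher in soma, each hold 1 GGCGCC, and the Bmp4 window holds neither sequence. Of all 32851 promoter windows of this length, 11.9% held GGCGCC and 49.6% held CAGAC or GTCTG. These windows are rich in G and C, from 59.3% in Bmpr2 to 79.3% in Bmpr1a, against a median of 52.7% over all windows, and a match of letters is a description, not a binding site.

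Id2 had the largest difference of the 4. It stood at 2.21, 2.24 and 2.14 on soma 1 to 3 and at -0.72, -0.65 and -0.85 on ESC 1 to 3. The groups lie 2.79 apart at their nearest arrays, and the log2 difference was -2.94 ± 0.07 (SE, n = 3 per group, adjusted p 5.08e-07), or 7.66-fold. Only 7.61% of all genes had a lower difference.

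Id1, the ID gene most often used as a readout of BMP signalling, stood at 2.14, 2.16 and 2.11 on soma 1 to 3 and at 0.19, 0.46 and 0.33 on ESC 1 to 3. Every soma array lies at least 1.65 above every ESC array. Its log2 difference was -1.81 ± 0.08 (SE, n = 3 per group, adjusted p 3.75e-06), or 3.50-fold. Id3 stood at 2.76, 2.65 and 2.44 on soma 1 to 3 and at 0.42, 0.47 and 0.52 on ESC 1 to 3, with soma 3 the lowest of the soma arrays. The log2 difference was -2.14 ± 0.09 (SE, n = 3 per group, adjusted p 3.90e-06), or 4.42-fold, and -1.96 against soma 3 alone. Id4 stood at -0.83, -0.88 and -0.89 on soma 1 to 3 and at -2.88, -2.97 and -2.86 on ESC 1 to 3. Its arrays lie within 0.12 of each other in each group, and the log2 difference was -2.04 ± 0.05 (SE, n = 3 per group, adjusted p 6.77e-07), or 4.10-fold.

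The probe signals of the ID genes did not differ by the same amount. The log2 ratio of Id1 to Id2 within an array was -0.06 ± 0.02 in soma and 1.07 ± 0.14 in ESC (SD, n = 3), so Id2 was lower against Id1 in ESC by a further 1.13. Ratios of Id2 to Id3 and of Id2 to Id4 were lower in ESC by differences of -0.79 and -0.90. None of these 3 ratios overlapped between groups, and each had an exact permutation p of 0.1, two-sided, the smallest the design allows, or 0.117 adjusted over the 7 pairs compared. The levels of these ratios depend on the probes, and their difference between groups is one of probe signals. Its size changed with background correction. Under normexp Id1 over Id2 stood at 0.88, Id2 over Id3 at -0.54 and Id2 over Id4 at -1.31. Id1 over Id3 was higher in ESC by 0.34. Id1 over Id4 was higher by 0.23, but stood at -0.05 under quantile normalization and at -0.43 under normexp background correction. These ratios did not overlap between groups either, with the same exact permutation p of 0.1, or 0.117 adjusted. The share over all gene pairs was not computed, and 87.3% of single genes did not overlap. Id3 over Id4 overlapped between groups, with a difference of -0.11 (exact permutation p 0.3).

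**Figure D3:**
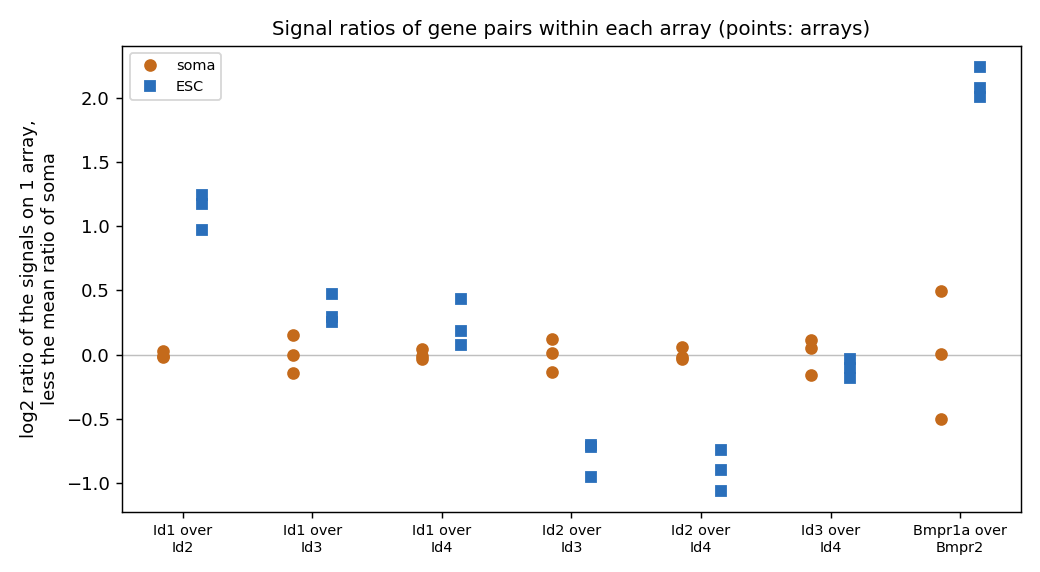
Log2 ratio of 2 genes' signals on the same array, less the mean ratio in soma (y axis), for 6 pairs of ID genes and the receptor pair (x axis); circles are soma arrays and squares ESC arrays. Id1 over Id2 is higher in ESC by 1.13 and Bmpr1a over Bmpr2 by 2.11, while Id3 over Id4 overlaps.

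Several other cell types express ID genes, among them endothelial cells, and RNA of such cells was present in soma. Of 8 endothelial markers, 4 passed as higher in soma and 2 as higher in ESC. Cdh5, Emcn and Tie1 were not well above background on any ESC array and were so on all soma arrays. The summed signal of the list was 4.63 to 6.40 times the 75th percentile in soma and 4.78 to 5.20 in ESC. Most of that sum on every array was Kdr, with a mean log2 signal of 1.90 in soma and 2.17 in ESC. Kdr did not pass (limma adjusted p 0.188). The sum thus mostly follows 1 probe and does not measure endothelial RNA in either group. Erythroid markers summed to 561 to 602 in soma and 0.102 to 0.123 in ESC, with Hbb-y, Hba-x and Alas2 not well above background in ESC. Leukocyte and macrophage markers summed to 5.36 to 5.72 in soma and 0.540 to 0.613 in ESC. Their part in the ID differences was not tested.

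Profiles over the 6 arrays most like those of single members were found by the root mean square difference of values, each gene less its own mean, among 11964 named genes detected above background on each of the 6 arrays. For Id1 the nearest were Prmt2 at 0.03 and Rcn2 at 0.04, and for Id2 Cd302 at 0.04 and Ppm1k at 0.06. For Id3 they were Myh8 at 0.05 and Gas6 at 0.06, for Id4 Zfp637 at 0.03 and Os9 at 0.04, and for Bmp4 Zfp518b at 0.06 and Hibadh at 0.07. Since 2 groups make up the 6 arrays, many genes share such a profile, with 164 genes within 0.1 of Id1 and 30 within 0.1 of Id2.

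The remaining pathway genes were read from a list of 67, of which 53 were tested and 14 had no probe well above background on all arrays of a group. Of the 53, 47 passed, or 88.7% against 85.0% of all genes, so the count that passed is near the background. The 47 were 36 higher in soma and 11 higher in ESC, and the median difference of the 53 was -1.01 against 0.14 for all genes. The 47 that passed kept their direction under each of the 4 other scalings and background corrections. Array median and spike-in scaling moved all of them by the same amount, 0.20 and -0.23. The smallest of the 47 differences in size was -0.35, for Tcf3, so those scalings could not reverse any of them. Only quantile normalization and normexp could do so.

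**Figure D4:**
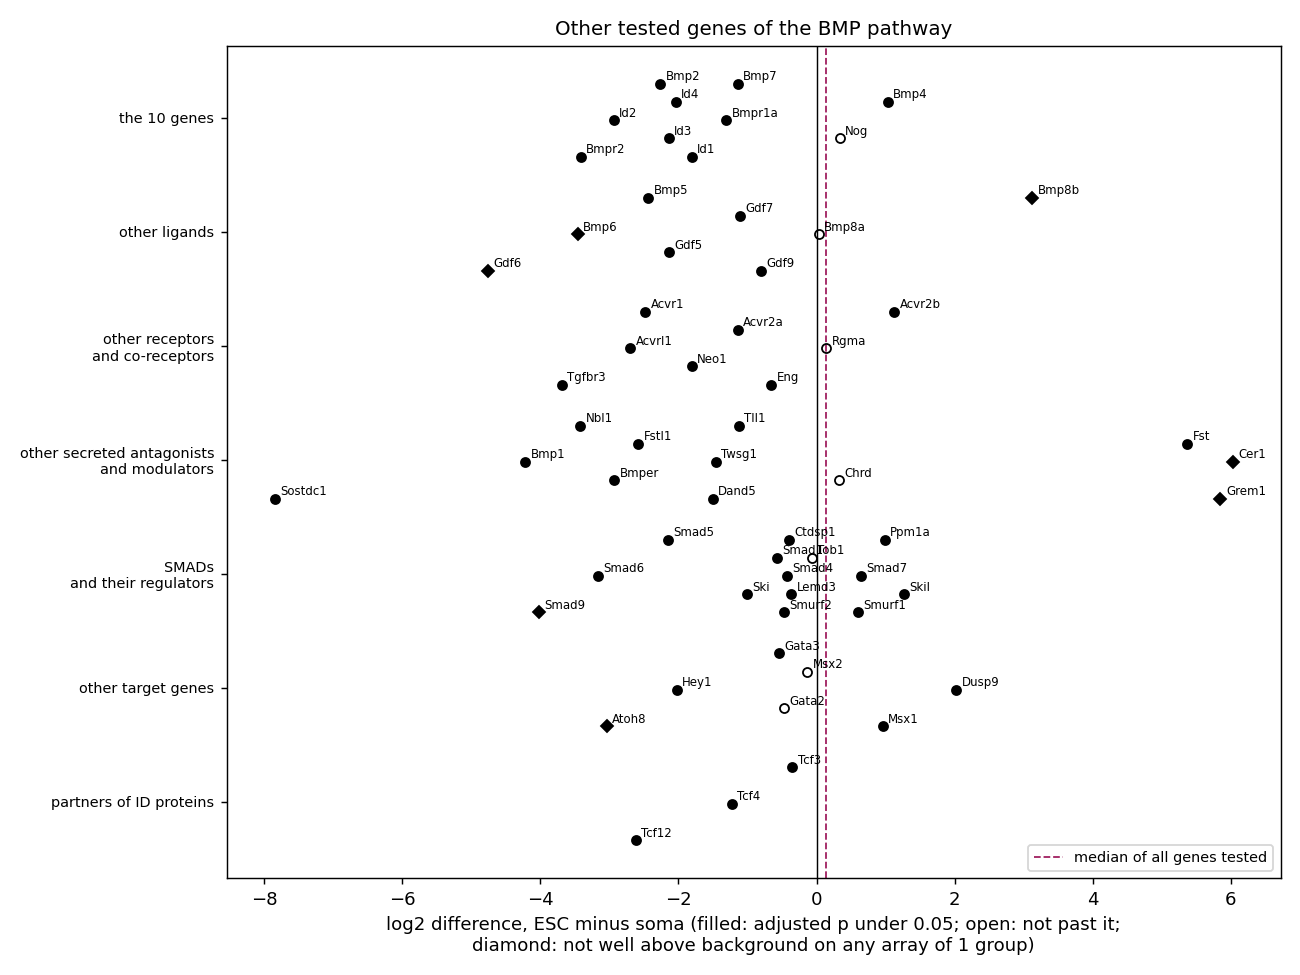
Log2 difference ESC minus soma (x axis) of the 10 genes and of 52 of the 53 other tested pathway genes by role (y axis); filled marks passed an adjusted p of 0.05, diamonds were below that mark on every array of 1 group, and the dashed line is the median of all genes at 0.14. Most marks lie left of 0, and Grem1, Cer1 and Fst lie farthest right.

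Among 8 other ligands tested, 6 were higher in soma, Bmp8b was higher in ESC and Bmp8a did not pass. Bmp6 was at least 6.70-fold and Gdf6 at least 5.83-fold lower in ESC, where neither was well above background. For such a bound each array of the dim group was given the lowest value that counted as well above background on it, or the probe's own value where that was larger. These bounds hold for the processed signal. Normexp background correction, which adds an offset of 50 to every signal and so shrinks differences of dim probes, gave -1.66 for Bmp6 and -1.83 for Gdf6, less than the bounds. Gdf5 fell by 2.14, with 1 of 3 ESC arrays well above background, and stood at -0.91 under normexp. Gdf9, an oocyte growth factor, fell by 0.81. Bmp8b, a ligand known from primordial germ cell induction, was at least 4.07-fold higher in ESC and not well above background in soma. Over the other scalings and normexp its log2 difference went down to 1.25, less than the bound.

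Among 8 other receptors and co-receptors tested, 6 were higher in soma, Acvr2b was higher in ESC and Rgma did not pass. The type I receptor genes Acvr1 and Acvrl1 were lower in ESC, with differences of -2.48 and -2.70, as were the co-receptor genes Tgfbr3 and Neo1, with -3.69 and -1.81. Acvr2b, a type II receptor that activins also use, rose by 1.13. Acvr1 and Bmpr1a, which encode type I receptors, were thus lower in ESC, by 5.60-fold and 2.48-fold. Bmpr1b, another BMP type I receptor gene, had no probe that could be tested.

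Secreted antagonists and modulators held the widest differences in the list, in both directions. Of 13 tested, 9 were higher in soma and 3 higher in ESC, and Chrd, the chordin gene, did not pass. The widest was that of Sostdc1, which encodes a secreted antagonist of BMP and Wnt signals and fell by 7.85, with 1 of 3 ESC arrays well above background and -7.87 on another probe. Nbl1 and Fstl1 were lower in ESC, with differences of -3.43 and -2.58. Bmp1, whose protease cleaves chordin, fell by 4.22, although another of its probes gave -0.69. The genes higher in ESC were Grem1, by at least 31.7-fold, Cer1, by at least 18.4-fold, and Fst, which rose by 5.37. Gremlin and Cerberus bind BMP ligands, and follistatin binds activin and some BMPs. Grem1 and Cer1 failed the background mark on every soma array, and over the other scalings and normexp their log2 differences went down to 3.40 and 3.15, less than the bounds.

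Of 14 SMAD genes and regulators, 9 were higher in soma, 4 higher in ESC and 1, Tob1, did not pass. Smad5, which encodes a SMAD that BMP receptors phosphorylate, fell by 2.15, and another of its probes gave -1.05. Smad6, an inhibitory SMAD gene that BMP signals induce, fell by 3.16, while Smad7, the other inhibitory SMAD gene, rose by 0.64. Smad9 was at least 3.92-fold lower in ESC, where it was not well above background, and stood at -1.26 under normexp, less than the bound. Ski, a SMAD co-repressor gene, fell by 1.01, and its relative Skil rose by 1.27. Some of these calls rest on the brightest probe. Smad1 stood at -0.58 on its brightest probe and at 0.03 on another, and Lemd3 at -0.37 and 0.11. Smurf2 stood at -0.47 on its brightest probe and at -0.05 and -0.58 on others.

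Other known target genes were split. Of 7 tested, 3 were higher in soma, 2 higher in ESC and 2 did not pass. Hey1 fell by 2.02. Atoh8 was at least 4.73-fold lower in ESC, where it was not well above background, and stood at -1.24 under normexp, less than the bound. Dusp9, a phosphatase gene through which BMP4 is known to restrain ERK in stem cells, rose by 2.02. Gata3 fell by 0.55, which no longer passed under quantile normalization (-0.35, adjusted p 0.0555) or with the slide as a fixed block (-0.36, adjusted p 0.0895). The 3 genes of E proteins, which ID proteins bind, were higher in soma. Tcf12 and Tcf4 had differences of -2.62 and -1.23, and Tcf3 fell by 0.35, which did not pass under scaling to the array median (adjusted p 0.122).

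Within the slide that holds both groups, the differences rest on soma 3 alone and the spread is that of the ESC arrays, which for Nog had an SD of 0.15 against 0.73 in soma. There Bmp4 stood at 0.92, Bmp2 at -2.28, Bmp7 at -1.12 and Bmpr1a at -1.37. Id1, Id2 and Id4 stood at -1.78, -2.88 and -2.02. Of the 10 genes, 10 passed there, as did 76.6% of all genes. All but Nog had the direction they had over all 6 arrays, and with this borrowed spread the call for Nog carries no weight.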

How the data were processed

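Arrays were one-colour and were read with Feature Extraction 10.7.3.1, per the file headers. The deposited processed signal is an intensity from which the software had taken background and a spatial trend, and arrays were not scaled to each other. The authors' deposited series matrix holds log2 values of unstated scale and centring. At least 99.96% of its 39429 probe values lay within 0.01 of the log2 processed signal less the array's 75th percentile and the probe's median over the arrays, and its column medians ran from -0.25 to 0.16. It served as an alternative.

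The log2 processed signal of gene spots was scaled to each array's 75th percentile, with replicate spots averaged by probe. Left out were 1377 control spots and spots that carried an outlier mark (15 probe values, all on ESC arrays). Probes were named by matching transcript identifiers to RefSeq genes of GRCm38.p6 (66.1% of probes), and a probe was kept when well above background on all arrays of a group. The brightest kept probe stood for its gene. The test was limma 3.58.1 (R 4.3.3), two-sided, with Benjamini-Hochberg adjustment over 19673 genes. The procedure was tested on simulated data with independent noise, few changed genes and no effect of slide, scan or scaling. That test therefore says nothing about such effects. The genes described, the pathway lists and the markers were chosen with earlier results of these data known. From each pathway list the 4 genes with the smallest adjusted p are named, and for Bmp4 and each ID gene the 2 genes of nearest profile. A gene that this rule selects is not reported here. Genes named beyond that rule (Sostdc1, Bmp8b, Bmp8a, Acvr2b, Rgma, Chrd, Grem1, Cer1, Fst, Tob1, Smad7, Skil, Smad1, Lemd3 and Smurf2) were chosen after their values were seen. The share of probes above background ran from 56.0% to 63.2% over the arrays, and the number of arrays limits the precision.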

Additional observations from a re-analysis of the deposited data

How the results depend on the processing

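Over 21 alternatives, 205 of the 210 differences of the 10 genes kept their direction and their side of the threshold. That count includes the shared slide alone, where 1 soma array leaves the test without weight. It also includes settings that could change only the adjusted p of these genes. Each had 1 kept probe, so other background filters and averaging over probes left its difference unchanged. So did the replicate block, another variance estimate and the test against a log2 difference of 1. Under those settings a kept direction is no evidence of stability. Scaling moved the median of all genes by -0.12 (quantile), 0.20 (array median), -0.23 (spike-in) and -0.11 (normexp). Relative to that median Bmp4 stood at 0.85 to 0.88 and Id2 at -3.08 to -2.81 under these and the main scaling. Array median and spike-in scaling shift every gene alike, so relative to that median they repeat the main value. Only quantile normalization and normexp could change it. The shift was also smaller in size than each of the 10 differences, so array median and spike-in scaling could not reverse a direction. Against a log2 difference of 1, Bmp4 (1.03, adjusted p 0.853) and Bmp7 (-1.14, adjusted p 0.389) no longer passed. By that test 7600 genes passed in all and 28 of the pathway list, against 16726 and 47. Nog reversed on the shared slide alone and with the slide as a fixed block (-0.47 in each), and without single arrays it ranged from 0.019 to 0.74, passing without soma 3. Among the ratios, Id1 over Id4 reversed under quantile normalization (-0.054) and normexp (-0.43), and Id3 over Id4 on the shared slide (0.054). Others kept their direction but changed in size. Under normexp Bmpr1a over Bmpr2 stood at 1.55, Id1 over Id2 at 0.88 and Id2 over Id3 at -0.54. There Id2 over Id4 stood at -1.31 and Id3 over Id4 at -0.77, and under quantile normalization at -1.13 and -0.43. On the shared slide Id1 over Id3 stood at 0.19. Ratios under alternatives were added after the data were seen. The cause was not tested. Deviations of same-numbered arrays of the groups had r of -0.05, 0.07 and 0.03 over genes, and those of differently numbered arrays -0.08 to 0.05. Such values cannot show whether the numbers pair samples, and the labels do not say. With the replicate block 9 of the 10 genes and 16495 genes passed. The second Bmp4 probe was not tested under any alternative. Where dim probes were filtered it failed the background mark, and without that filter the brighter probe still stood for the gene. All 10 genes were well above background on all 6 arrays, so signal over background limits the 14 pathway genes left untested.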
